A study of Solanum lycopersicum with 18 samples.

Results

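Fruit transcriptomes of the Vesuviano tomato (RSV) were set against those of the San Marzano tomato (SM), both grown in the field at Sarno, in the Campania region of southern Italy. The comparison used the 3 RSV libraries and the 3 SM libraries of that site, 6 of the 18 libraries of the series, chosen by their cultivar and location labels alone. All 6 came from total RNA of red ripe fruit (*Solanum lycopersicum*) of untreated plants, with no transgene or mutation. The other libraries were 3 each of RSV, SM and the reference cultivar Heinz (H) at a second field, Acerra, and 3 of H at Sarno. Fruits of a variety were pooled within each plot and then split into aliquots, and whether the 3 libraries of a variety were plots or aliquots is not given in the sources used here. The p-values therefore measure only the spread between these libraries, which may be technical. RSV and SM reads were aligned to a separate genome assembly for each variety and quantified in separate runs, so a difference in gene expression and a difference in the assembly or run cannot be told apart from these values alone.

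RSV and SM are both traditional Campanian varieties that differ in fruit shape and use. In tomato, ripening is set in motion by ethylene, which is made from 1-aminocyclopropane-1-carboxylate (ACC) by ACC synthase and ACC oxidase. The wall is loosened meanwhile by enzymes acting on pectin and xyloglucan, chloroplasts turn into chromoplasts, and photosynthetic transcripts are lost. In bulk fruit RNA, a lower number of cells of a type and less RNA per cell cannot be told apart.

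Values were in FPKM, the number of sequenced fragments of a transcript scaled by its length and by the size of the library. The tables hold no counts, and the sequencing depth of the libraries was not analysed here. Of 29896 genes that could be matched between the RSV and SM tables, between 17523 and 18021 were above 0 in the RSV libraries and between 16951 and 17959 in the SM libraries. RSV replicate 3 stood apart from the other libraries of its variety. The scaled median absolute deviation of log2 ratios was 0.19 between RSV replicates 1 and 2, but 0.39 and 0.34 between replicate 3 and these, against 0.23 to 0.27 among the SM libraries. Among 9598 genes averaging at least 5 FPKM in both varieties, 142 were at least 2-fold above both other RSV libraries in RSV replicate 3 and 318 were at least 2-fold below both. In SM replicate 1, 25 genes were that far above and 146 that far below the other SM libraries. No pair of Sarno libraries within either variety was a duplicate, and other pairs were not checked.

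The main question was which genes differed between ripe fruits of both landraces in a shared field. Of 14070 genes tested, those that averaged 0.5 FPKM or more across both varieties, 1064 (7.56%) passed an adjusted p of 0.05 in limma's moderated test on log2(FPKM + 0.5), with Benjamini-Hochberg adjustment. The 623 genes that were higher in RSV made up 4.43% of the genes tested, and the 441 genes that were higher in SM 3.13%. At an unadjusted p under 0.05 there were 3745 genes (26.6%). The log2 fold change (RSV over SM) was at least 1 for 383 of the called genes and at most -1 for 260, which makes 4.57% of the genes tested. It was at least 3 for 43 and at most -3 for 26, or for 30 and 17 without the genes listed at 0 throughout a variety. In all 1064 called genes the RSV values and the SM values did not overlap, which also held for 32.2% of the genes tested. The plot of change against level shows called genes over the whole range of expression. Genes averaging 1 to 5 FPKM had the highest percentage of calls (9.14%) and those averaging 0.5 to 1 FPKM the lowest (6.54%). Above 100 FPKM, 8.21% of 1206 genes were called, 75 higher in RSV and 24 higher in SM. The median log2 fold change of all genes at this level was 0.19, against 0.07 for all genes tested. The part of this shift in the direction of these calls was not tested.

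**Figure D1:**
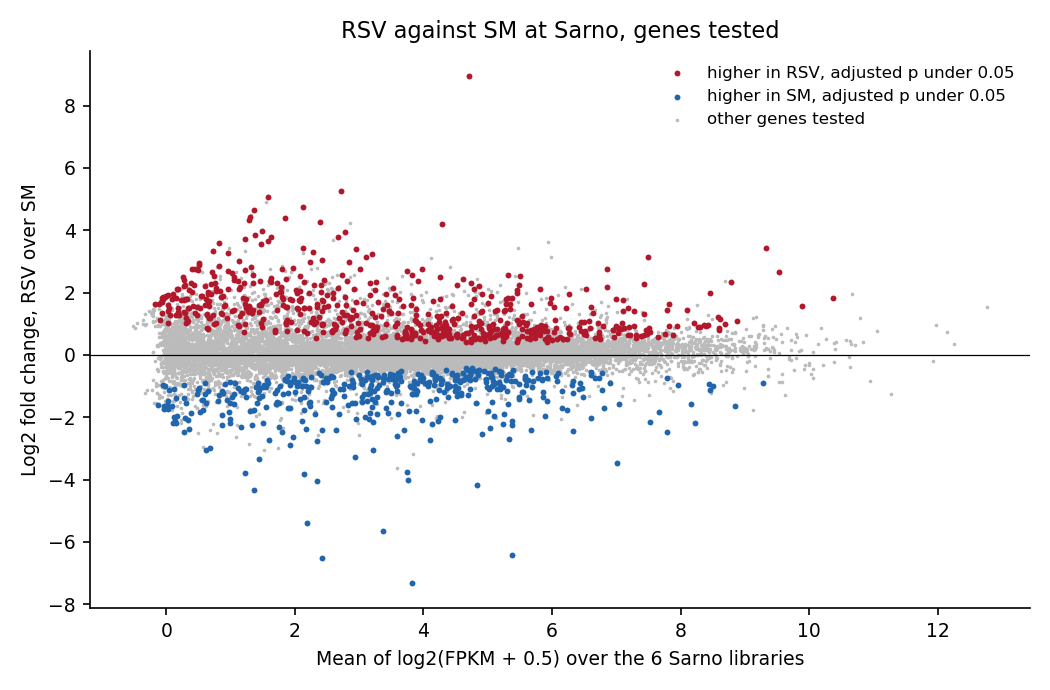
Log2 fold change of RSV over SM at Sarno (vertical axis) against the mean of log2(FPKM + 0.5) over the 6 libraries (horizontal axis), 1 point a gene, for the 13996 genes tested that were not at 0 throughout either variety. Red points are called genes higher in RSV, blue points called genes higher in SM and grey points the other genes. Called genes lie on both sides of 0 at every level, and the farthest point is Solyc01g081250 at 8.94.

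The direction of the calls depended on the scaling, the number less so. The median log2 fold change of all genes tested was 0.07 as deposited, 0.00 after rescaling by median ratios and -0.03 after quantile normalization. Median ratio rescaling called 1053 genes (7.49%), 524 higher in RSV and 529 higher in SM, so that 49.8% of calls were higher in RSV, against 58.6% as deposited. Quantile normalization called 1273 (9.05%), with 560 higher in RSV and 713 higher in SM. Of the 1064 calls, 965 were called in the same direction after median ratio rescaling, and none changed sign. Leaving out RSV replicate 3 raised the number of calls to 1828, whereas it was 224 without RSV replicate 1 and 192 without RSV replicate 2. It was 429, 558 and 630 without SM replicates 1, 2 and 3. A set of 169 genes, 91 higher in RSV and 78 higher in SM, was called in each of these 6 fits as well as with all libraries.

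Genes whose assembled locus differed in length between the assemblies were called more often. Of 2409 tested genes whose locus spans differed by 5% or more between RSV and SM, 12.3% were called, against 6.59% of 11661 genes with spans within 5%. Spans differed for 17.1% of all genes tested, 27.8% of the called genes and 52.2% of the 69 called genes that differed by at least 3 on the log2 scale (20 of 47 without the genes listed at 0 throughout a variety). Where spans differed, the longer locus was the RSV one for 69.4% of the 180 genes called higher in RSV and for 29.3% of the 116 called higher in SM. The part of the locus model in these differences was not tested.

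The largest differences in favour of RSV separated the varieties almost completely. They were taken as the 8 called genes with the largest fold change, a mean of at least 5 FPKM in RSV and a value above 0 in at least 1 SM library. Except for the cortical cell-delineating protein gene described below with the lipid genes, no description of these genes was at hand, and they are given by identifier. Solyc01g081250 (chromosome 1, 72873700 to 72875113 on the RSV assembly and 72882473 to 72883326 on the SM assembly) was at 595, 527 and 630.4 FPKM in RSV, against 0.430, 0.934 and 0.745 FPKM in SM. Its log2 fold change was 8.94 (SE 0.18, adjusted p = 4.53e-06, limma). Solyc01g081250 was thus abundant in every RSV library and below 1 FPKM in every SM library. Its locus spanned 1414 bp on the RSV assembly and 854 bp on the SM assembly, so these values also rest on unequal gene models.

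Solyc09g091890 (chromosome 9) had 34, 34.1 and 54.7 FPKM in RSV and 1.08, 0.159 and 0.658 FPKM in SM, a log2 fold change of 5.25. Solyc07g065110 (chromosome 7) had 14.3, 7.46 and 44.2 FPKM in RSV and 0, 0.0467 and 0 FPKM in SM, with a log2 fold change of 5.08. Solyc11g073290 (chromosome 11) had 26.9, 24.2 and 16.5 FPKM in RSV and 0, 0.626 and 0.578 FPKM in SM. The groups did not overlap for any of these, although the RSV values of Solyc07g065110 were widely spread. Solyc07g032080 was the steadiest of the set, with 11.9, 12.2 and 13.0 FPKM in RSV against 0.0109, 0.0256 and 0.00885 FPKM in SM. Solyc02g065310 had 8.87, 11.1 and 13.0 FPKM in RSV and 0.0560, 0 and 0.0453 FPKM in SM, and Solyc12g044680 had 12.6, 13.2 and 6.80 FPKM in RSV and 0.150, 0 and 0 FPKM in SM. The locus of Solyc02g065310 spanned 7727 bp on the RSV assembly and 1247 bp on the SM assembly, and that of Solyc11g073290 4111 bp and 291 bp. That of Solyc09g091890 spanned 986 bp and 632 bp, so the values of these genes rest on unequal gene models.

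The 8 largest differences in favour of SM were of similar size. Solyc10g084360 (chromosome 10, 63100313 to 63102902 on the RSV assembly) was at 5.21, 0 and 0 FPKM in RSV, against 181, 194 and 158 FPKM in SM, a log2 fold change of -7.30 (SE 0.92, adjusted p = 0.00965, limma). Its locus spanned 2590 bp in RSV and 236357 bp in SM. Solyc11g028100 (chromosome 11, 16699227 to 16702288 on the RSV assembly) had 0.0367, 0.0925 and 0.0495 FPKM in RSV and 44.5, 50.9 and 57.3 FPKM in SM, with a log2 fold change of -6.51 (SE 0.15, adjusted p = 8.16e-06, limma). Close to it on the chromosome, Solyc11g028080 had 0.317, 0 and 0.343 FPKM in RSV and 21.6, 29.0 and 39.0 FPKM in SM. The locus of Solyc11g028080 was equally long on both assemblies, whereas that of Solyc11g028100 spanned 3062 bp in RSV and 18924 bp in SM. All SM values of these genes lay far above all RSV values.

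Solyc09g015010 had 3.32, 3.14 and 6.02 FPKM in RSV and 155, 629 and 594 FPKM in SM, a log2 fold change of -6.43. Solyc06g008180 had 0.127, 0.107 and 0 FPKM in RSV and 13.3, 10.3 and 9.69 FPKM in SM, on loci of 177 bp and 3999 bp. Solyc04g082090 varied least, with 0.664, 0.720 and 0.876 FPKM in RSV and 20.2, 19.5 and 21.3 FPKM in SM. Its locus spanned 2514 bp in RSV and 5243 bp in SM. The spread was much wider in the remaining 2 genes of the set. Solyc06g083490 had 0.534, 0.832 and 1.82 FPKM in RSV and 60.1, 357 and 17.5 FPKM in SM, and its call was lost without RSV replicate 1, RSV replicate 2 or SM replicate 1 (adjusted p = 0.11, 0.111 and 0.0743, limma). Solyc09g097770 had 12.8, 12 and 1.30 FPKM in RSV and 76.7, 129.8 and 177 FPKM in SM. It kept its call only without RSV replicate 3, the other 5 fits giving adjusted p-values of 0.0656 to 0.0851 (limma). Of the 16 genes of both directions, 14 were called in all 6 fits that left out a library, and 8 had locus spans that differed by 5% or more.

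**Figure D2:**
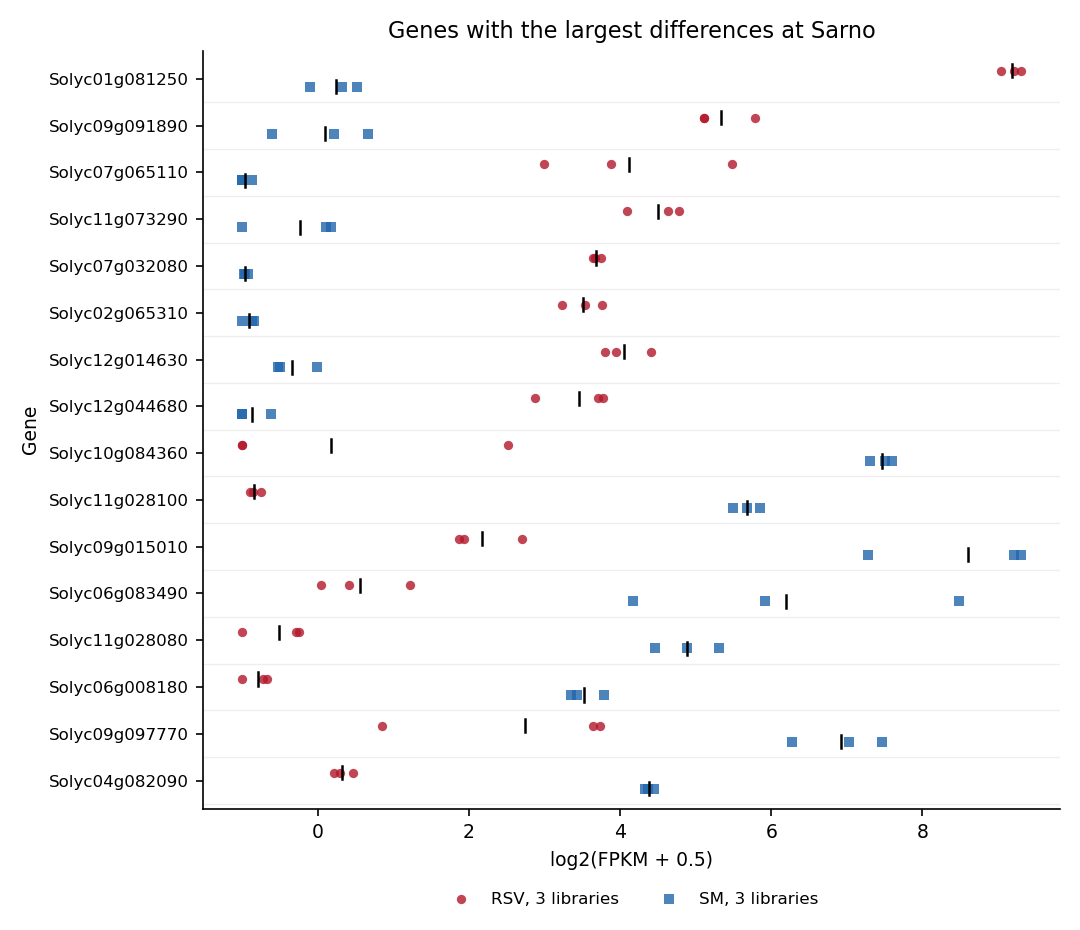
Values of log2(FPKM + 0.5) in each Sarno library (horizontal axis) for the 8 genes with the largest differences in each direction (rows). Red circles are the 3 RSV libraries and blue squares the 3 SM libraries, with a black bar at each mean. The first 8 rows are higher in RSV and the last 8 higher in SM, with no overlap in any row.

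Some of the differences concerned abundant transcripts, taken as the called genes with the highest mean in each direction. Those listed at 0 throughout a variety are given apart below. Among called genes that differed by at least 1 on the log2 scale, Solyc03g083620 had 2986, 2476 and 2124 FPKM in RSV and 494, 948 and 742 FPKM in SM, a log2 fold change of 1.83. Solyc06g059720 had 2526, 2303 and 1604 FPKM in RSV and 73.7, 159 and 641 FPKM in SM, and Solyc10g007650 had 2069, 1765 and 1219 FPKM in RSV and 519, 458 and 698 FPKM in SM. In these 3 genes RSV replicate 3 was the lowest of the RSV libraries and was still above every SM library. In favour of SM, Solyc08g078700 had 255, 222 and 307 FPKM in RSV and 793, 1141 and 589 FPKM in SM, with a log2 fold change of -1.64. Solyc12g013700 had 137, 126 and 158 FPKM in RSV and 846, 659 and 457 FPKM in SM (-2.18), and Solyc01g104740 had 86.2, 83.1 and 113 FPKM in RSV and 429, 1080 and 311 FPKM in SM (-2.48). Solyc11g020040 had 214, 208 and 305 FPKM in RSV and 487, 575 and 502 FPKM in SM (-1.12). Of these 7 genes only Solyc12g013700 was called in all 6 fits that left out a library. The largest adjusted p of the other genes in such a fit lay between 0.0982 and 0.148 (limma), without RSV replicate 2 in each case but Solyc06g059720, where it was without RSV replicate 1. The locus of Solyc06g059720 spanned 30766 bp on the RSV assembly and 1393 bp on the SM assembly. That of Solyc12g013700 spanned 2730 bp and 7839 bp, and that of Solyc11g020040 4411 bp and 5204 bp, so these values rest on unequal gene models.

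Genes listed at exactly 0 in the 3 Sarno libraries of a variety were kept apart, because a value of 0 can be a failed estimate. At 0 in RSV were 899 genes that were above 0 in SM, of which 45 averaged at least 0.5 FPKM in SM and 4 at least 10 FPKM. At 0 in SM were 1073 genes that were above 0 in RSV, of which 87 averaged at least 0.5 FPKM in RSV and 10 at least 10 FPKM. Among the 1064 calls, 18 genes were at 0 in RSV and 27 were at 0 in SM. No fold change is given for them. The values at Acerra fell into different patterns. Solyc07g049140 was listed at 6390, 5377 and 9244 FPKM in RSV and at 0 in SM at Sarno, and again at 6049, 8136 and 8818 FPKM in RSV and at 0 in SM at Acerra. Solyc11g027650 was listed at 0 in RSV and at 1422, 2373 and 1059 FPKM in SM at Sarno, and was at 0 in the RSV libraries of Acerra and in the H libraries of Sarno too.

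By contrast, Solyc03g031860 was listed at 2066, 2021 and 4421 FPKM in RSV and at 0 in SM at Sarno, whereas at Acerra it had 1877.5, 2294 and 2396 FPKM in RSV and 4098, 3583 and 3250.1 FPKM in SM. Solyc01g099190 was listed at 1325, 1526 and 2261 FPKM in RSV and at 0 in SM at Sarno, and at Acerra at 1278.5, 1790.0 and 1793 FPKM in RSV and 3655, 2572 and 2632 FPKM in SM. Both genes were thus abundant in SM fruit at Acerra and listed at exactly 0 in all SM libraries at Sarno. Of the 45 genes at 0 in RSV that averaged at least 0.5 FPKM in SM, 31 were also at 0 in RSV at Acerra, and of the 87 at 0 in SM, 65 were also at 0 in SM at Acerra. Whether these zeros are absences was not tested. Solyc06g005870 was listed at 0 in RSV and at 26.4, 55.8 and 40.6 FPKM in SM, on loci of 325 bp and 4746 bp, and Solyc01g015300 at 0 in RSV and at 12.2 FPKM in each SM library, on loci of 171 bp and 5300 bp. In 2 further cases a single library made the mean. Solyc00g008570 was listed at 50.8, 46.7 and 1933 FPKM in RSV and at 0 in SM, and Solyc04g014920 at 0 in RSV and at 0, 0 and 35.5 FPKM in SM.

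Genes with a published description were examined in 18 lists of 151 genes, covering cell wall, ethylene, transcription factors, signalling, metabolism and defence. The lists had been compiled for genes that responded to the site or carried variants in these cultivars, partly from the same libraries, so their direction here is not independent evidence. Of the 151 genes 135 were matched and 116 were tested. Of these, 11 were higher in RSV, 5 were higher in SM and 100 did not pass the test, which makes 13.8% called, against 7.56% of all genes tested. The median log2 fold change of the 116 genes was 0.999, against 0.07 for all genes tested, and the RSV mean was the higher in 96. Values did not overlap and were higher in RSV for 37.9% of them, against 19.8% of all genes tested. They did not overlap and were higher in SM for 8.62%, against 12.4% of all genes tested.

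The list genes varied widely within each variety. RSV replicate 3 was the lowest RSV library in 66.4% of the 116 genes (43.7% of all genes tested), and SM replicate 1 was the lowest SM library in 73.3% (35.9% of all genes tested). Relative to the SM mean, the median log2 value of the list genes was 1.14, 1.07 and 0.42 in RSV replicates 1, 2 and 3 and -0.51, 0.29 and 0.19 in SM replicates 1, 2 and 3. The part of these libraries in the list result was not tested beyond leaving each out. The median log2 fold change was then between 0.76 (without SM replicate 1) and 1.2 (without SM replicate 3). The number called was 31 higher in RSV and 5 higher in SM without RSV replicate 3, but 2 and 1 without RSV replicate 1 and 2 and 0 without RSV replicate 2. It was 7 and 3 without SM replicate 1, 15 and 3 without SM replicate 2, and 3 and 2 without SM replicate 3. With no minimum level it was 4 and 4 of 135 genes, with the spread pooled over 12 libraries 40 and 6, and over all 18 libraries 34 and 7. Of the 16 called list genes, 2 were called in all 6 fits that left out a library. The calls of Solyc12g005940, Solyc07g007750, Solyc09g090130 and Solyc12g008840, described below, held in only 1 of these 6 fits.

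**Figure D3:**
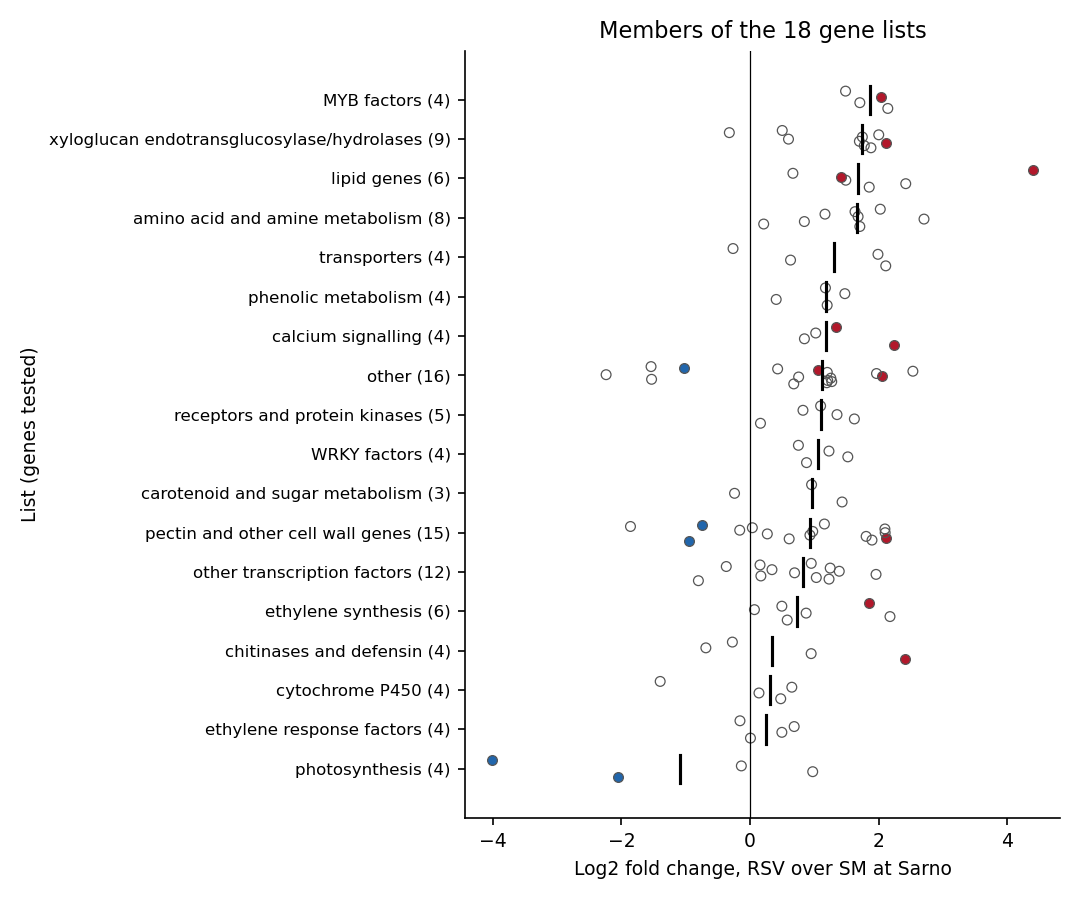
Log2 fold change of RSV over SM at Sarno (horizontal axis) for the 116 tested members of the 18 lists (rows, with the number of genes tested in parentheses). Filled red circles are called genes higher in RSV, filled blue circles called genes higher in SM and open circles genes that did not pass the test, and the black bar is the median of the list. The medians are above 0 in every list except photosynthesis, at -1.09, while most circles are open.

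Xyloglucan endotransglucosylase/hydrolases (XTHs), which cut and rejoin the xyloglucan chains that tether cellulose, had the second highest list median, 1.75. One of the 9 genes was higher in RSV and 8 did not pass the test. Solyc03g093120, in a cluster of XTH genes on chromosome 3 (47611265 to 47612507 on the RSV assembly), was at 56.6, 55.9 and 58.3 FPKM in RSV, against 5.47, 22.7 and 16.4 FPKM in SM, a log2 fold change of 2.11 (SE 0.47, adjusted p = 0.0463, limma). RSV values were nearly identical and SM values were widely spread, with replicate 1 the lowest. The call was lost without RSV replicate 1, 2 or 3 or SM replicate 3 (adjusted p = 0.148, 0.144, 0.0632 and 0.0803, limma).

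The other members of the cluster showed the same order of libraries in SM. Solyc03g093130 had 67.1, 62.9 and 66.3 FPKM in RSV and 8.43, 33.6 and 26.8 FPKM in SM (log2 fold change 1.70, adjusted p = 0.0815, limma). Solyc03g093110 had 16.9, 16.8 and 13.6 FPKM in RSV and 1.57, 7.76 and 5.65 FPKM in SM (1.78, adjusted p = 0.0797, limma), and Solyc03g093080 had 74.3, 65.6 and 31.9 FPKM in RSV and 5.08, 23.8 and 23.2 FPKM in SM (1.88, adjusted p = 0.12, limma). On chromosome 7, Solyc07g056000 had 64.6, 68.5 and 43.8 FPKM in RSV and 6, 24.6 and 18.4 FPKM in SM (2.00, adjusted p = 0.0605, limma). In each of these genes every RSV library was above every SM library, although the difference did not pass the threshold. The cluster genes are neighbours of 1 family, and reads that fit several of them were divided by the quantification, so their separate values are uncertain.

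Among 15 tested genes for pectin and other wall polymers, 1 was higher in RSV, 2 were higher in SM and 12 did not pass the test, with a list median of 0.93. The pectinesterase gene Solyc03g083730, for an enzyme that demethylates pectin, had 2.99, 2.52 and 5.91 FPKM in RSV and 0.0678, 0.952 and 0.494 FPKM in SM, with a log2 fold change of 2.12 (SE 0.43, adjusted p = 0.0376, limma). The glucan synthase like gene Solyc01g006370, from a family that makes callose, had 8.03, 9.35 and 7.29 FPKM in RSV and 14.1, 15.8 and 19.5 FPKM in SM (-0.96, adjusted p = 0.0229, limma). The beta-galactosidase gene Solyc12g008840, for an enzyme that trims galactose from wall polymers, had 44.5, 43.6 and 37.7 FPKM in RSV and 58.5, 71.5 and 83.7 FPKM in SM (-0.75, adjusted p = 0.0392, limma). Both differences in favour of SM were smaller than that of the pectinesterase gene. The endoglucanase gene Solyc09g010210 had 156, 141 and 265 FPKM in RSV and 39.0, 82.6 and 22.3 FPKM in SM, and missed the threshold (2.1, adjusted p = 0.0511, limma).

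All 6 tested genes of ethylene synthesis had the higher mean in RSV, but only 1 passed the test, and the list median was 0.73. The ACC oxidase gene Solyc12g005940 had 2.96, 3.55 and 2.4 FPKM in RSV and 0.0351, 1.16 and 0.466 FPKM in SM, a log2 fold change of 1.85 (SE 0.42, adjusted p = 0.0482, limma). The ACC synthase 2 gene Solyc01g095080, the most abundant of the list, had 85.7, 83.1 and 532 FPKM in RSV and 20.3, 52.2 and 37.2 FPKM in SM (2.18, adjusted p = 0.132, limma). Its RSV values were above all SM values, and replicate 3 was the highest by far. The ACC synthase genes Solyc00g095860 and Solyc08g081550 had smaller differences of 0.58 and 0.50 on the log2 scale (adjusted p = 0.0741 and 0.131, limma). None of the 4 tested ethylene response factor genes passed the test, with log2 fold changes from -0.16 to 0.69. The highest, Solyc10g009110, had 78.8, 92.7 and 51.0 FPKM in RSV and 33.9, 45.5 and 57.1 FPKM in SM, with overlapping groups.

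Of the other regulators, 1 of 4 MYB genes and none of 4 WRKY genes or 12 genes for other transcription factors passed the test. The Myb-related gene Solyc09g090130 was higher in RSV, with 1.65, 1.23 and 4.55 FPKM in RSV and 0.0567, 0.199 and 0.207 FPKM in SM (log2 fold change 2.03, adjusted p = 0.0391, limma). The MYB gene Solyc02g079280 had 3.12, 3.60 and 0.549 FPKM in RSV and 0.0263, 0.108 and 0.0638 FPKM in SM (2.14, adjusted p = 0.0594, limma). RSV replicate 3 was thus the highest RSV library for the first MYB gene and the lowest for the second. The WRKY gene Solyc03g116890 had 48.3, 50.6 and 16.3 FPKM in RSV and 7.99, 26.8 and 7.15 FPKM in SM (1.52, adjusted p = 0.181, limma). The CRT binding factor gene Solyc03g026280, of a family that acts in the cold response, had 46.8, 42.1 and 9.92 FPKM in RSV and 5.51, 14.3 and 3.52 FPKM in SM (1.96, adjusted p = 0.142, limma). In both of these genes replicate 3 of RSV lay within the range of SM.

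In calcium signalling, 2 of 4 tested genes were higher in RSV and 2 did not pass the test. Both were annotated as calmodulin-like proteins, which bind calcium and pass its signal on. Solyc02g094000 had 89.7, 115 and 86.9 FPKM in RSV and 13.6, 44.5 and 13.3 FPKM in SM, with a log2 fold change of 2.23 (SE 0.46, adjusted p = 0.0384, limma), and its locus was 7.79 times as long on the RSV assembly. Solyc11g071760 had 3.18, 3.96 and 3.35 FPKM in RSV and 0.761, 1.58 and 1.01 FPKM in SM (1.33, adjusted p = 0.025, limma). None of the 5 tested genes for receptors and protein kinases passed the test, with log2 fold changes from 0.16 to 1.62.

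The largest difference of any list gene was in the lipid list, where 2 of 6 tested genes were higher in RSV and 4 did not pass the test. Solyc12g014630, annotated as a cortical cell-delineating protein (chromosome 12, 5613407 to 5614030 on the RSV assembly), had 20.7, 13.5 and 14.9 FPKM in RSV and 0.194, 0.492 and 0.209 FPKM in SM, with a log2 fold change of 4.40 (SE 0.23, adjusted p = 0.000352, limma). It passed the threshold in all 6 fits that left out a library. The lipase gene Solyc08g078090 had 2.96, 2.95 and 2.54 FPKM in RSV and 0.389, 1.40 and 0.643 FPKM in SM (1.41, adjusted p = 0.0419, limma). A lipid-transfer protein gene, Solyc01g081600, had 7.85, 6.94 and 2.22 FPKM in RSV and 0.0542, 2.06 and 2.02 FPKM in SM (1.85, adjusted p = 0.161, limma).

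Of 4 tested genes for chitinases and a defensin, 1 was higher in RSV and 3 did not pass the test. The defensin gene Solyc07g007750, for a small antimicrobial peptide, had 11.6, 7.76 and 19.8 FPKM in RSV and 0.826, 2.60 and 2.72 FPKM in SM (log2 fold change 2.42, SE 0.45, adjusted p = 0.0307, limma). Its locus spanned 46981 bp on the RSV assembly and 1268 bp on the SM assembly. The chitinase gene Solyc07g009530, for an enzyme that breaks down fungal walls, was one of the most variable abundant transcripts. It had 2220, 1841 and 156 FPKM in RSV and 87.4, 653 and 1545 FPKM in SM, and the varieties overlapped (0.95, adjusted p = 0.698, limma).

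None of 8 tested genes of amino acid and amine metabolism, 4 of phenolic metabolism, 3 of carotenoid and sugar metabolism, 4 for transporters or 4 for cytochrome P450 passed the test. All 8 genes of amino acid and amine metabolism had the higher mean in RSV, with a list median of 1.66. Several had been published as lower in SM, or higher in RSV, at Sarno than at Acerra. Their direction here is therefore not independent evidence. The arginine decarboxylase gene Solyc10g054440, for an enzyme that starts the synthesis of polyamines, had 60.0, 59.2 and 48.9 FPKM in RSV and 3.71, 22 and 27.3 FPKM in SM (log2 fold change 2.03, adjusted p = 0.122, limma). Decarboxylase genes that lie close together on chromosome 8 had differences of 1.68 (Solyc08g068600), 1.63 (Solyc08g068680) and 1.17 (Solyc08g068610), with adjusted p-values of 0.0574, 0.0809 and 0.0998 (limma). The beta-carotene hydroxylase 2 gene Solyc03g007960, which acts in xanthophyll synthesis, had 60.2, 55.8 and 43.1 FPKM in RSV and 27.5, 36.6 and 19.1 FPKM in SM (0.96, adjusted p = 0.0699, limma). The 4-coumarate-CoA ligase-like gene Solyc06g035960, of a family that feeds phenylpropanoid synthesis, had 21.5, 20.9 and 19.0 FPKM in RSV and 5.46, 13.4 and 9.18 FPKM in SM (1.17, adjusted p = 0.0621, limma).

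Photosynthesis was the single list with a median below 0. Of 4 tested genes, 2 were higher in SM and 2 did not pass the test. Solyc06g060340, for a photosystem II-associated chloroplast protein (chromosome 6, 34648515 to 34651661 on the RSV assembly), had 2.18, 1.26 and 7.65 FPKM in RSV and 65.1, 33.2 and 71.4 FPKM in SM, with a log2 fold change of -4.01 (SE 0.59, adjusted p = 0.0153, limma). Its call was lost without RSV replicate 1, RSV replicate 2 or SM replicate 1 (adjusted p = 0.0732, 0.0566 and 0.0514, limma). The aldolase gene Solyc02g062340 had 4.38, 3.50 and 2.33 FPKM in RSV and 17.7, 8.52 and 23.3 FPKM in SM (-2.05, adjusted p = 0.031, limma). Solyc06g060340 had also been set as a marker of green tissue, and it was higher in SM. The chlorophyll a-b binding protein genes, the other markers of green tissue, were low and did not follow the variety. Solyc03g115900 had 8.90, 8.04 and 0.785 FPKM in RSV and 0.289, 1.05 and 10.6 FPKM in SM, and Solyc05g056050 had 1.08, 0.941 and 0.285 FPKM in RSV and 0.230, 0.225 and 3.98 FPKM in SM. Both were lowest in replicate 3 among the RSV libraries and highest in replicate 3 among the SM libraries, and their adjusted p-values were 0.636 and 0.931 (limma). The red ripe label was checked against the chlorophyll a-b binding protein genes and Solyc06g060340 only, and these did not go the same way.

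Among 16 further described genes, 2 were higher in RSV, 1 was higher in SM and 13 did not pass the test. The acid phosphatase gene Solyc03g098010, for an enzyme that releases phosphate, had 7.92, 7.38 and 9.20 FPKM in RSV and 1.13, 1.83 and 1.83 FPKM in SM, a log2 fold change of 2.06 (SE 0.20, adjusted p = 0.00417, limma), and was the other list gene called in all 6 fits that left out a library. The aspartic proteinase gene Solyc05g051240 had 27.9, 27.3 and 24.9 FPKM in RSV and 13.0, 8.98 and 17 FPKM in SM (1.05, adjusted p = 0.0409, limma), and its call was lost after median ratio rescaling. Solyc08g007770, named as a network hub but with no function given, had 27.5, 26.4 and 23.5 FPKM in RSV and 47.3, 51.3 and 62.1 FPKM in SM (-1.03, adjusted p = 0.0103, limma). The groups did not overlap in any of these 3 genes, but the SM values of Solyc05g051240 were widely spread, and its call was also lost without RSV replicate 1, RSV replicate 2, SM replicate 1 or SM replicate 2 (adjusted p = 0.143, 0.14, 0.105 and 0.0542, limma).

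**Figure D4:**
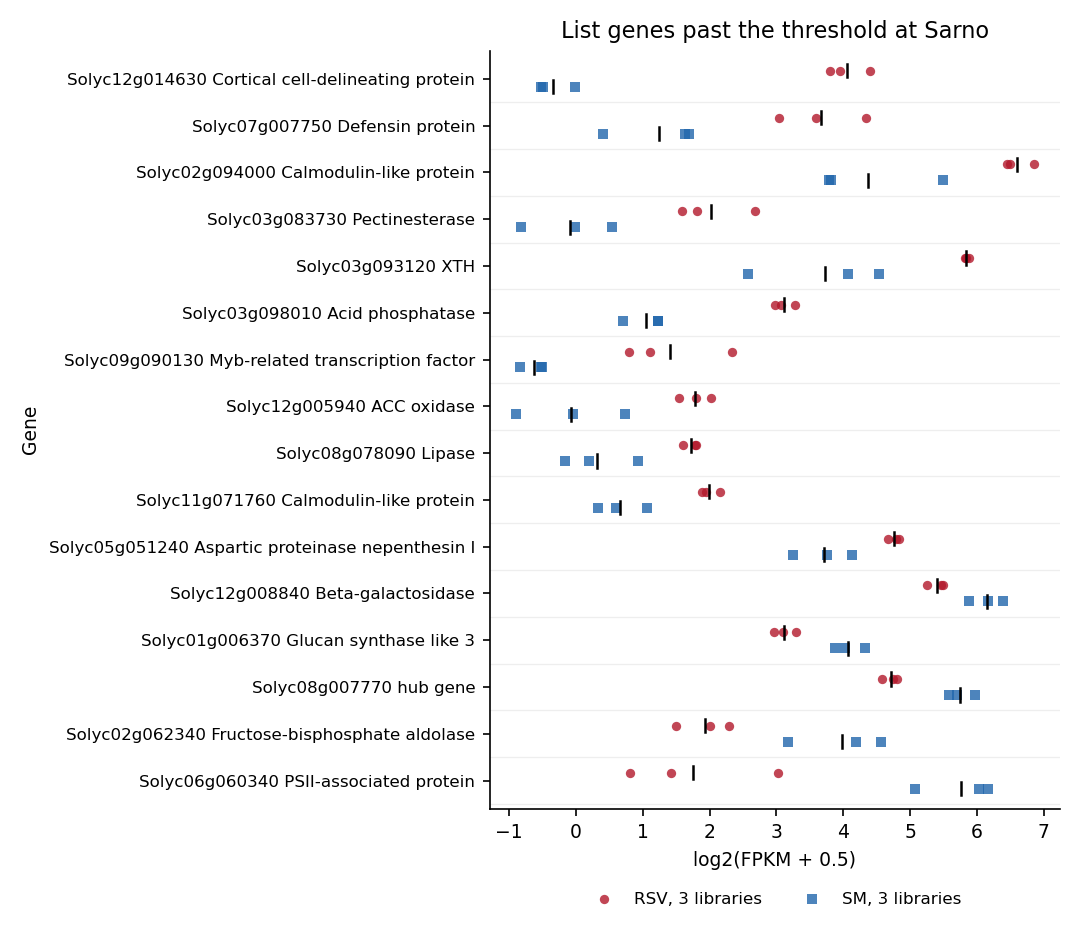
Values of log2(FPKM + 0.5) in each Sarno library (horizontal axis) for the 16 list genes that passed an adjusted p of 0.05 (rows, ordered by log2 fold change). Red circles are the 3 RSV libraries and blue squares the 3 SM libraries, with a black bar at each mean. The upper 11 genes are higher in RSV and the lower 5 higher in SM, from the cortical cell-delineating protein at 4.40 to the photosystem II-associated protein at -4.01.

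Called genes were spread over all chromosomes. The percentage called ranged between 6.58% on chromosome 7 and 9.79% on chromosome 12, and 14 of 112 genes (12.5%) were called on the unanchored sequence labelled chromosome 0. In 273 windows of 50 consecutive tested genes the median was 4 called genes, 8 windows had 0 and 3 windows had 10 or more. The densest window lay on chromosome 1 (Solyc01g108230 to Solyc01g109300, 87175414 to 87888695 on the RSV assembly), with 12 called genes, 10 higher in RSV and 2 higher in SM. Its genes with the smallest adjusted p included the neighbours Solyc01g108870, with 31.8, 29.5 and 34.6 FPKM in RSV and 7.70, 11.4 and 9 FPKM in SM, and Solyc01g108860, with 6.69, 6.89 and 17.7 FPKM in RSV and 0.130, 0.114 and 0.315 FPKM in SM. Both were called in all 6 fits that left out a library (log2 fold changes 1.73 and 3.86, adjusted p = 0.00335 and 0.0049, limma). The loci of Solyc01g108860 spanned 9332 bp and 1648 bp. Solyc01g109120 had 7.74, 8.27 and 7.70 FPKM in RSV and 1, 2.56 and 1.16 FPKM in SM (2.1, adjusted p = 0.0124, limma).

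The same comparison at Acerra used other libraries, aligned to the same assemblies. There, 4099 of 13767 genes tested (29.8%) passed the threshold, 2005 higher in RSV (14.6%) and 2094 higher in SM (15.2%). Leaving out genes at 0 in either variety, 974 of the genes called at Sarno were tested at Acerra. Of these, 907 had the same sign there and 685 were called in the same direction, while 67 had the opposite sign and 8 were called in the opposite direction. Over all 13446 genes tested at both sites, 71.0% had the same sign and 29.9% were called at Acerra. The genes called higher in SM at Sarno were called in the same direction at Acerra in 82.4% of 415 cases, and those called higher in RSV in 61.4% of 559 cases. Both sets are calls on the values as deposited, where the split between the varieties depended on the scaling. Their recurrence after rescaling was not tested. The assemblies and gene models were shared by both sites, and their part in the recurrence was not tested.

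The largest differences mostly recurred, but those of Solyc12g044680, Solyc07g065110 and Solyc12g014630 did not, and their Acerra values are given below. At Acerra, Solyc01g081250 had a log2 fold change of 10.42 (adjusted p = 8.35e-07, limma), Solyc07g032080 of 4.94 and Solyc02g065310 of 4.70. Solyc11g028100 had -6.23 there, Solyc10g084360 -6.25 and, of the list genes, Solyc06g060340 -4.68 (adjusted p = 7.77e-05, 0.00419 and 0.00399, limma). By contrast, the XTH genes of the chromosome 3 cluster had log2 fold changes between -0.17 and 0.23 at Acerra, and the calmodulin-like gene Solyc02g094000 -0.20 (adjusted p = 0.646, limma). For none of these 5 genes was the difference between the sites itself past the threshold, since the interaction term gave adjusted p-values of 0.108 to 0.32 (limma, 12 libraries). Over all 14036 genes tested for a difference between the sites, 93 (0.663%) passed the threshold, and 42 of the genes called at Sarno were among them. The list genes had a median log2 fold change of -0.17 at Acerra, where 93 of them were tested and 42 had the higher mean in RSV. Of these 93, 16 were called higher in RSV and 25 higher in SM, beside 14.6% and 15.2% of all genes tested at Acerra. Many list genes had been chosen for a response to the site, and the part of that choice in the contrast between the sites was not tested.

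**Figure D5:**
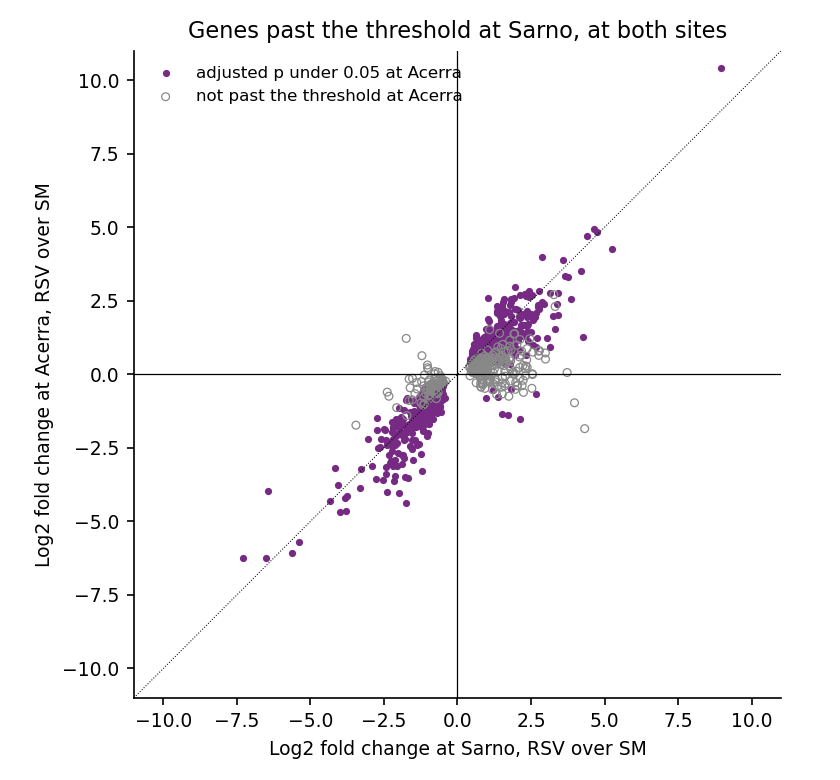
Log2 fold change of RSV over SM at Acerra (vertical axis) against that at Sarno (horizontal axis) for the 974 genes called at Sarno, tested at Acerra and not at 0 throughout either variety at Sarno. Filled points also passed an adjusted p of 0.05 at Acerra, open points did not, and the dotted line marks equal values. Most points lie in the lower left and upper right parts, where 907 genes have the same sign at both sites, and 67 lie in the other parts.

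The H libraries of Sarno, aligned to the Heinz genome, gave a further point of reference. Of 1039 called genes with a value in H, the H mean on the log2 scale was nearer to that of SM in 675 and nearer to that of RSV in 364. Among the 613 genes called higher in RSV it was nearer to SM in 401, and among the 426 genes called higher in SM it was nearer to RSV in 152. Solyc01g081250, at 595, 527 and 630.4 FPKM in RSV, had 9.06, 38.5 and 6.93 FPKM in H, and Solyc11g028100, near 0 in RSV, had 49.3, 52.5 and 50 FPKM in H. Solyc06g060340 had 85.3, 21.7 and 74.3 FPKM in H, above every RSV library. These counts are descriptive, since the genes had been chosen by the difference between RSV and SM.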

How the data were processed

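Total RNA of red ripe fruit had been sequenced from TruSeq libraries. As given in the methods and the submitters' processing notes, the authors demultiplexed reads with CASAVA 1.8.2, aligned reads with TopHat2 2.0.6 to SL2.40 for H and to a separate assembly for SM and for RSV, and ran Cufflinks 2.1.1 with multi-read correction once per variety. The deposited values are FPKM per locus, written with decimal commas. They were read as deposited and no column was left unassigned.

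Loci were matched between varieties by a reference entry of exactly 1 Solyc identifier that occurs once in each table. Left out were 1577 RSV and 1548 SM loci that join several identifiers, and 2195 and 2309 with none. Coordinates are those of the variety assemblies. Genes averaging 0.5 FPKM or more across the 6 Sarno libraries were tested on log2(FPKM + 0.5), a scale that understates the change of low genes, with limma 3.58.1 in R 4.3.3 (trended eBayes, two-sided, Benjamini-Hochberg over all genes tested). A permutation of 3 against 3 libraries cannot give an exact p under 0.1, so no permutation test is given. On simulated data for this comparison (13909 genes, 200 changed by 2 on the log2 scale) the fit called 167 of the changed genes and 7 others. The simulated noise was independent between genes and libraries, and only genes averaging at least 2 FPKM were changed. A library that deviates in many genes together was not simulated, so the 7 calls do not measure the error rate in these data.

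Named genes were up to 4 described members of a list with the smallest adjusted p, together with the XTH cluster, and the sets defined in the text. List genes with an adjusted p above 0.25 were left to the counts, except the green-tissue genes and a chitinase gene, and that limit was set after the values were seen. The members, gene lists and rules were chosen with earlier results of these data known. No table at hand named Solyc identifiers, so only genes described in the publication have a name. The authors' own test results were not used. Alternatives were other scalings, pseudocounts, minimums, variance models, sets of libraries and each library left out.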

Additional observations from a re-analysis of the deposited data

Results flagged for a closer look

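Leaving aside genes listed at 0 throughout a variety at Sarno, for 6 of the named genes the difference between RSV and SM at Sarno differed from that at Acerra by the interaction term of limma over the 12 libraries, with adjusted p under 0.05. These genes had been named for the size of their difference at Sarno or from published lists of genes that responded to the site or carried variants. That choice rested partly on the same libraries, so these interaction results are not independent evidence. The difference at Sarno minus that at Acerra was 6.17 on the log2 scale (SE 1.16, adjusted p = 0.0432, limma) for Solyc12g044680, whose Acerra values were 0.757, 0 and 0.206 FPKM in RSV and 5.37, 6.56 and 0 FPKM in SM, on a locus of 168 bp. For Solyc07g065110, listed at 0 in all RSV and SM libraries of Acerra, it was 5.08 (SE 0.66, adjusted p = 0.0086, limma). For the cortical cell-delineating protein gene Solyc12g014630 it was 4.73 (SE 0.35, adjusted p = 0.000132, limma), with 0, 0 and 0 FPKM in RSV and 0, 0.357 and 0.0873 FPKM in SM at Acerra. In H at Sarno, this gene was at 12.4, 0.213 and 0.0671 FPKM, high in a single library.

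The pectinesterase gene Solyc03g083730 was higher in RSV at Sarno and lower in RSV at Acerra, where it had 2.53, 1.38 and 0.570 FPKM in RSV and 6.55, 3.25 and 4.85 FPKM in SM, so that the difference between the sites was 3.63 (SE 0.64, adjusted p = 0.0334, limma). The acid phosphatase gene Solyc03g098010 was at 0.378, 0.141 and 0.112 FPKM in RSV and 0.570, 0.199 and 0.291 FPKM in SM at Acerra, giving a difference between the sites of 2.32 (SE 0.32, adjusted p = 0.0115, limma). The 4-coumarate-CoA ligase-like gene Solyc06g035960 had 30.2, 20.3 and 23.6 FPKM in RSV and 51.4, 46.4 and 53.6 FPKM in SM at Acerra, a difference of 2.20 (SE 0.35, adjusted p = 0.0246, limma). In these 3 genes the direction at Acerra was opposite to that at Sarno or the values were near 0. Of the genes at 0 in SM at Sarno, Solyc03g031860 and Solyc01g099190 also passed this test. They had been named for being at 0 in SM and abundant in RSV at Sarno, and SM was abundant at Acerra. Their result thus followed from the zeros, which can be failed estimates, and no difference or p-value is given.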

How the results depend on the processing

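The correlations of same-numbered RSV and SM deviations were -0.238, 0.024 and -0.305. Plots held plants of any variety, and whether a number stands for a shared plot is not given in the sources used here. The correlations cannot decide it, because the deviations were taken from means of 3 libraries and RSV replicate 3 stood apart. With the number as a replicate block, 218 genes were called, 124 higher in RSV and 94 higher in SM, and 33 genes depended on the site instead of 93. Of the list genes, 2 higher in RSV and 1 higher in SM were then called, instead of 11 and 5. Pooling the spread over the 12 libraries of both varieties gave 2688 calls (1692 higher in RSV, 996 higher in SM), and over all 18 libraries 2521 (1545 and 976). With locus spans within 5% there were 678 (383 higher in RSV), and with a log2 fold change of at least 1 in size 643 (383 and 260). Quantile normalization called 713 genes higher in SM instead of 441. Leaving out a library gave 192 to 1828 calls, 109 to 1180 higher in RSV and 83 to 648 higher in SM, and at Acerra 2708 to 3636 instead of 4099. Genes at 0 in either variety numbered 132 at a minimum of 0.5 FPKM in the other, 74 at 1 FPKM and 14 at 10 FPKM. The other alternatives kept these counts within 1.5 times. Of the named genes, 1 chlorophyll a-b binding gene, Solyc05g056050 (-0.13), changed sign at a pseudocount of 0.1 (0.039), without RSV replicate 3 (0.18) and without SM replicate 3 (0.74), and ranged over -0.57 to 0.74 without a library. The chitinase gene Solyc07g009530 (0.95) changed sign without SM replicate 1 and ranged over -0.22 to 2.18 without a library, none of these past the threshold. Median ratio rescaling changed no sign of a named gene and lost 1 call, that of Solyc05g051240. Fits without a library had fewer samples, and the cause of the other shifts was not tested. Detection of small differences was not simulated.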
